A study of Arabidopsis thaliana with 7 samples.

Results

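WRKY53, STZ, CML41, AT4G27280, AT3G46600 and EXO are 6 genes of Arabidopsis thaliana that read higher soon after flowers were sprayed, out of 13513 probe sets on the array that pair with a single gene. They were chosen by name, in view of how they read after the spray on these arrays, so that the difference with a mock spray could be set beside the one with indole-3-acetic acid (IAA), an auxin. Each is read by 1 probe set, and all 6 passed the filter on dim probe sets, which kept 13021 of 22746. WRKY53 passed it through the mock array and the double-mutant IAA array alone, where it was highest.

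The 7 arrays hold RNA of flowers of stages 1 to 14, cut from plants grown for 6 weeks under long days, with 1 array in each group. Wild-type Columbia flowers were untreated, sprayed with a mock solution of 1% methanol and 0.05% Tween-20, or sprayed with IAA in that solution, 30 minutes before harvest. The labels write the mutants as arf6/arf6 ARF8/arf8 and arf6 arf8. Flowers of each were untreated or sprayed with IAA, and no mock array of a mutant was used here. The first, called the one-copy mutant below, keeps 1 wild-type copy of either ARF6 or ARF8. The series text writes it as ARF6/arf6 arf8/arf8, so which gene kept the copy is not settled by these sources. The second is called the double mutant. The IAA dose is 10 µM in the labels and 10 mM in the series text. Each sample is whole flowers of many stages, in which fewer cells of a type and less RNA per cell cannot be told apart. Nothing in the labels says how many plants each array stands for.

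Plants answer touch, wetting and wounding within minutes by a rise of calcium inside the cell and a burst of short-lived transcripts. Calcium is read by EF-hand proteins such as calmodulin and the calmodulin-like proteins, and the early transcripts encode many transcription factors. Auxin acts on a similar time scale: it causes the breakdown of Aux/IAA repressors, which frees auxin response factors such as ARF6 and ARF8 to act on their targets. ARF6 and ARF8 are known for their part in the maturation of stamens, petals and gynoecium. Among the 6 genes, WRKY53 encodes a transcription factor of stress and leaf senescence, and STZ, also called ZAT10, a zinc finger repressor of salt and drought responses. CML41 encodes a calmodulin-like protein. AT4G27280 was counted here with the calcium-sensing genes and AT3G46600 with the GRAS family of regulators, and the gene tables used here give both by locus code alone. EXO (EXORDIUM) encodes a secreted protein needed for cell expansion in leaves and is known to respond to brassinosteroids.

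Signals are linear intensities on a scale where each array has a 2% trimmed mean of 500, and levels are not compared between probe sets. Ratios are on a log2 scale after values below 64.9 were raised to that floor. The arrays had medians between 240.95 and 261.5. The wild-type mock array had the highest 10th percentile, 26.9, and the double-mutant IAA array the next, 17.89, against 9.4 to 13.1 on the other arrays. Because rapid induction chose the genes, the differences between sprayed and untreated flowers are given as a description with no test.

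All 6 genes read higher on every sprayed array than on the untreated array of the same genotype, where 14.5% of the probe sets kept did so. The median ratio over the 6 genes was 1.85-fold for mock over untreated in wild type and 1.16-fold for IAA over mock. For IAA over untreated it was 2.17-fold in wild type, 2.33-fold in the one-copy mutant and 3.01-fold in the double mutant. The median log2 ratio over all probe sets kept lay between -0.02 and 0.02 in each of these comparisons. At least 1.5-fold higher were 4 of 6 genes with mock (6.92% of all probe sets kept), 2 of 6 with IAA over mock (3.56%), 5 of 6 with IAA over untreated in wild type (2.88%), 5 of 6 in the one-copy mutant (3.18%) and 6 of 6 in the double mutant (5.93%). Apart from STZ the genes passed that fold in all 3 genotypes, 5 of 6 against 0.707% of the probe sets kept. These shares follow from how the genes were chosen.

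**Figure D1:**
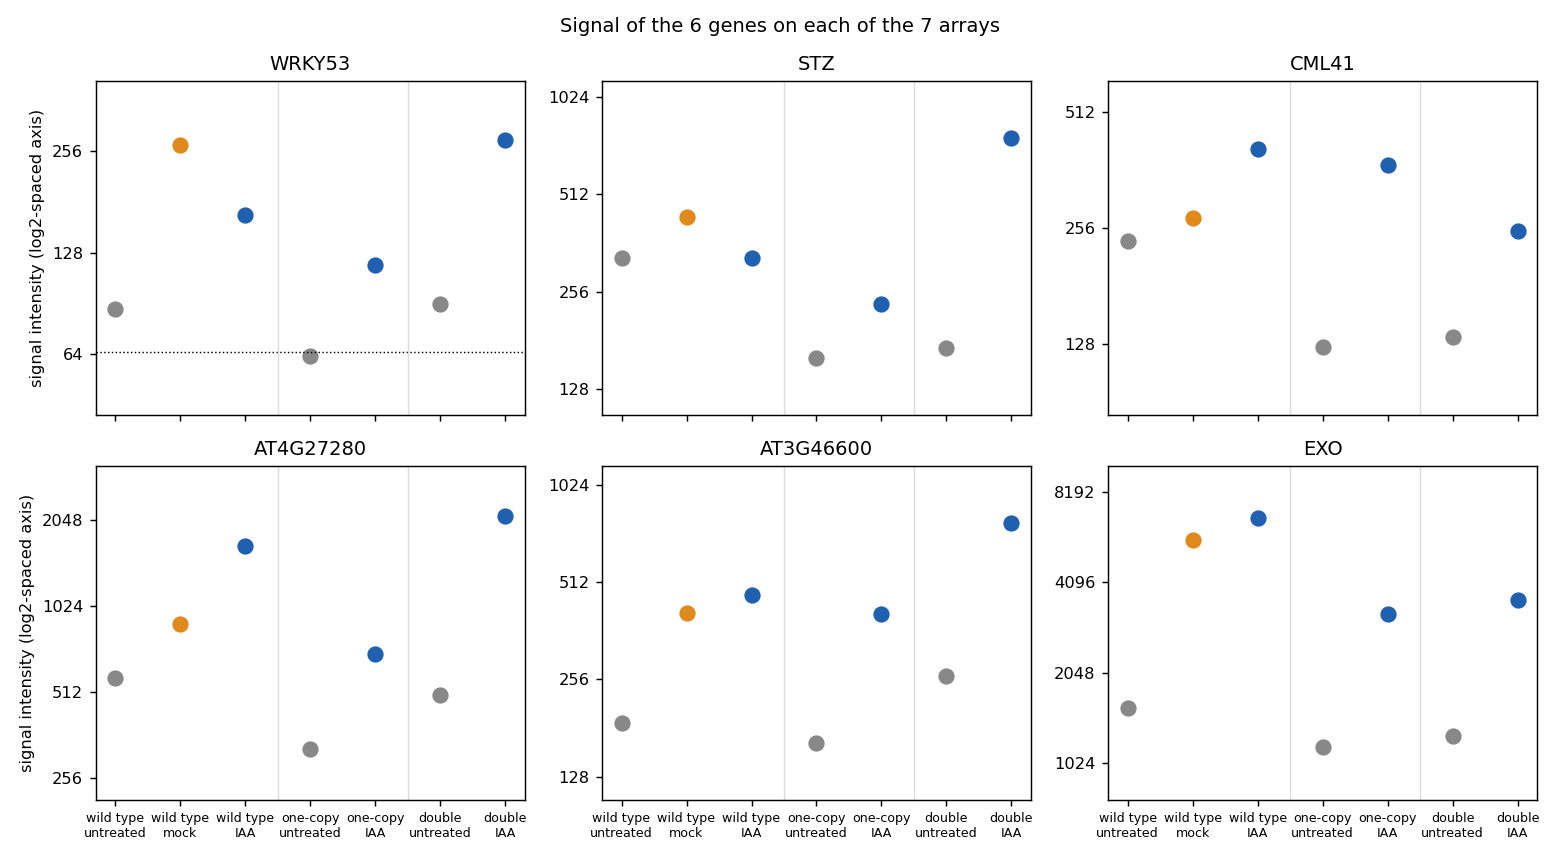
Signal intensity of each gene (vertical axis, log2-spaced, in the units of the deposited table) on each of the 7 arrays (horizontal axis), with untreated flowers in grey, mock in orange and IAA in blue; each point is 1 array and has no error bar. In all 6 panels the lowest point is the untreated one-copy array; the dotted line in the WRKY53 panel is the floor of 64.9.

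WRKY53 was the gene with the largest drop from mock to IAA. In wild type it read 87.1 untreated, 266.8 with mock and 165.4 with IAA. In the one-copy mutant it read 63.3 untreated and 117.8 with IAA, and in the double mutant 90.3 and 275.3. The mock array and the double-mutant IAA array stood above the other 5, and they lay 0.05 apart on the log2 scale, within the residual SD of 0.20 that the fit gave this probe set. The untreated arrays of wild type and the double mutant, also 0.05 apart, lay within it too. With no repeat arrays the residual SD is only a scale. It measures how far genotype differences disagree between untreated and IAA arrays, and the mock array adds nothing to it. Mock over untreated was 3.06-fold, and IAA over mock was 1.61-fold lower. The 2 arrays where WRKY53 was highest are those with the raised low end. By rank, WRKY53 went from the 31st percentile of the untreated wild-type array to the 50.4th with mock and the 41.7th with IAA. In the double mutant it went from the 32nd to the 52.5th. The part of the raised low end in these readings was not tested. After quantile normalization the log2 ratio of mock over untreated was 1.41 in place of 1.62, with a pseudocount of 50 it was 1.21, and with the floor raised to the 40th percentile 0.76. The raised floor also brought IAA over untreated to 0.07 in wild type and 0.00 in the one-copy mutant, so that WRKY53 no longer passed 1.5-fold there, and to 0.81 in the double mutant.

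STZ read nearly alike with IAA and untreated in wild type, and in the double mutant it had the largest ratio of the 6 genes. In wild type it read 325.2 untreated, 434.5 with mock and 325.9 with IAA. In the one-copy mutant it went from 159.4 to 235.1, and in the double mutant from 171 to 762.9. The double-mutant IAA array stood alone at the top, 0.81 on the log2 scale above the mock array, and the untreated arrays of both mutants were lowest and 0.10 apart. The 3 wild-type arrays lay within the residual SD of 0.44 of the next, which was the widest of the 6 genes. That SD holds the opposite double-mutant differences, -0.93 untreated and 1.23 with IAA. It therefore cannot show that the wild-type arrays agree. IAA over untreated was thus 1.00-fold in wild type, 1.47-fold in the one-copy mutant and 4.46-fold in the double mutant. In the double mutant 5 of the 13021 probe sets kept had a larger ratio. As with WRKY53, the 2 highest arrays were those with the raised low end, which held for 2 of the 6 genes and for 6.74% of the probe sets kept.

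For CML41 and AT4G27280 the step from mock to IAA was the larger one in wild type. CML41 read 236.7 untreated, 272.4 with mock and 411 with IAA. In the one-copy mutant it went from 125.2 to 372.3 and in the double mutant from 133.3 to 251.9. The untreated arrays of the mutants were lowest, and the IAA arrays of wild type and the one-copy mutant were highest and within the residual SD of 0.20 of each other. Mock over untreated was 1.15-fold, IAA over mock 1.51-fold, and IAA over untreated 1.74-fold in wild type, 2.97-fold in the one-copy mutant and 1.89-fold in the double mutant. CML41 thus had its largest ratio in the one-copy mutant, where 15 of the probe sets kept had a larger one.

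In wild type AT4G27280 read 572.7 untreated, 889.8 with mock and 1663.8 with IAA. It went from 322.9 to 697.2 in the one-copy mutant and from 502.7 to 2125.2 in the double mutant. The IAA arrays of the double mutant and of wild type were above the other 5, and the IAA array of the one-copy mutant lay below the wild-type mock array. Mock over untreated was 1.55-fold and IAA over mock 1.87-fold, and 146 of the probe sets kept had a larger ratio in the second. IAA over untreated was 2.91-fold in wild type, 2.16-fold in the one-copy mutant and 4.23-fold in the double mutant.

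For AT3G46600 and EXO most of the rise in wild type came with mock, and they read a little higher with IAA. The step from mock to IAA was 0.18 on the log2 scale for AT3G46600, whose residual SD was 0.14. For EXO it was 0.25, with a residual SD of 0.19. That SD is the scale of 1 array, while a step is a difference between 2. The values therefore do not set these steps apart from the spread. In wild type AT3G46600 read 187.9 untreated, 412 with mock and 467.5 with IAA. It went from 163.3 to 409 in the one-copy mutant and from 262.4 to 781.4 in the double mutant. All 4 sprayed arrays were above all 3 untreated ones, and the double-mutant IAA array was highest. Mock over untreated was 2.19-fold and IAA over mock 1.13-fold. IAA over untreated was 2.49-fold in wild type, 2.505-fold in the one-copy mutant and 2.98-fold in the double mutant.

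In wild type EXO read 1557.6 on the untreated, 5650.4 on the mock and 6699.1 on the IAA array. It went from 1156 to 3211.9 in the one-copy mutant and from 1261.8 to 3584.7 in the double mutant. The mock and IAA arrays of wild type were highest, and the IAA arrays of the mutants lay 0.16 apart on the log2 scale, within the residual SD of 0.19. Mock over untreated was 3.63-fold, a ratio that 17 of the probe sets kept exceeded, and IAA over mock was 1.19-fold. IAA over untreated was 4.30-fold in wild type, 2.78-fold in the one-copy mutant and 2.84-fold in the double mutant. EXO was the only one of the 6 genes with a smaller ratio in the double mutant than in wild type, except that with the floor raised to the 40th percentile CML41 was smaller there too (0.68 against 0.80 on the log2 scale).

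**Figure D2:**
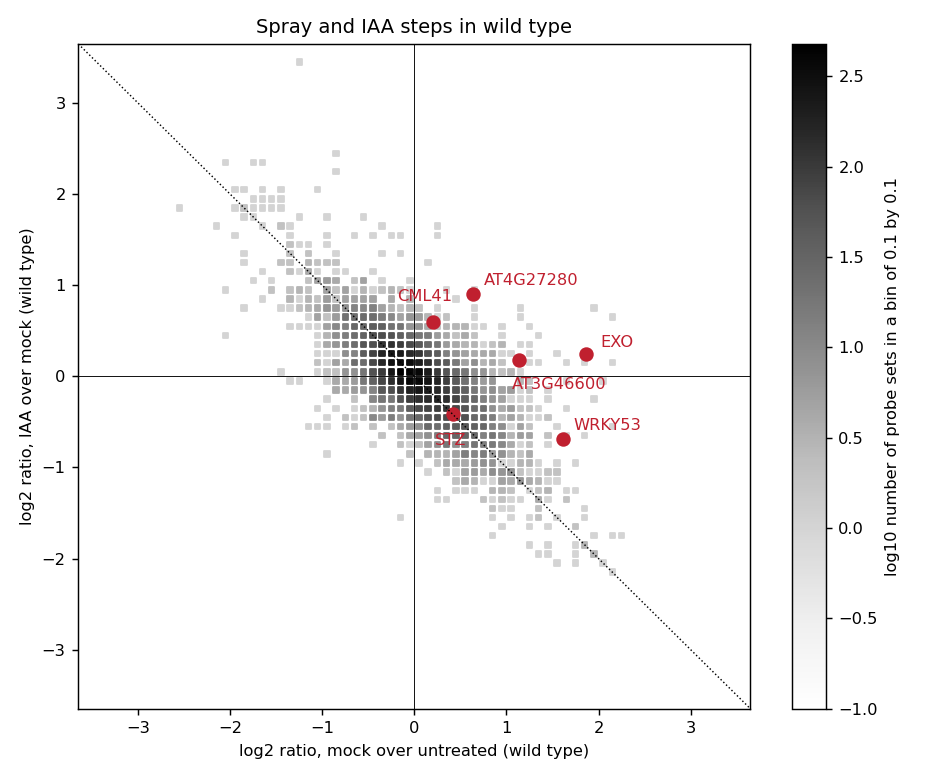
Log2 ratio of mock over untreated (horizontal axis) and of IAA over mock (vertical axis) in wild type, each from 2 single arrays; red points are the 6 genes and grey squares count all 13021 probe sets kept in bins. On the dotted line IAA and untreated arrays read alike: STZ lies on it (0.42 and -0.41), EXO is farthest to the right (1.86 and 0.25), AT4G27280 is highest (0.64 and 0.90) and WRKY53 has a negative vertical value (-0.69). The mock array enters both axes with opposite signs, which by itself spreads points along that line.

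In wild type the mock step was larger than the IAA step for 4 of the 6 genes, WRKY53, STZ, AT3G46600 and EXO, and for 46.9% of the probe sets kept. The sign of the IAA step split them. On the log2 scale it was 0.90 for AT4G27280, 0.59 for CML41, 0.25 for EXO and 0.18 for AT3G46600. It was -0.41 for STZ, within the residual SD of 0.44, and -0.69 for WRKY53. Only WRKY53 was at least 1.5-fold lower with IAA than with mock, as were 5.19% of the probe sets kept. On the calcium-sensing list, the other 2 genes matched by name that passed the filter, CML30 and CML42, had IAA steps of -0.26 and -0.44. Both steps rest on the same single mock array, so an error of that array moves them in opposite directions.

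In the mutants the spray and IAA cannot be told apart, and their joint ratio can only be set beside the wild-type mock step. That ratio exceeded the wild-type mock step for 4 of 6 genes in the one-copy mutant (51.6% of the probe sets kept) and for 4 of 6 in the double mutant (49.3%). In both mutants these were STZ, CML41, AT4G27280 and AT3G46600. For EXO the joint log2 ratio was 1.47 and 1.51 in the mutants, below the 1.86 of the wild-type mock step. For WRKY53 it was at least 0.86 in the one-copy mutant, whose untreated array lay below the floor, and 1.61 in the double mutant, against 1.62. The ratio was larger in the double mutant than in wild type for 5 of 6 genes (CML41 turned with the raised floor), against 48.8% of the probe sets kept, and larger in the one-copy mutant for 3 of 6, against 50.7%. These differences in response were not tested, since they were in view when the genes were chosen and each rests on single arrays.

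**Figure D3:**
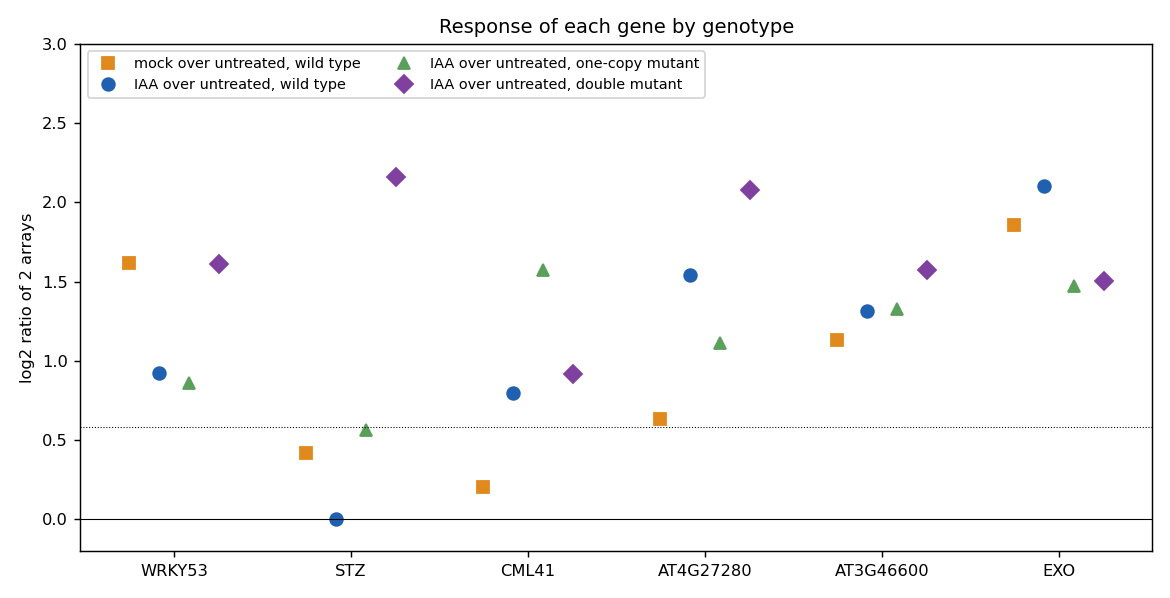
Log2 ratio of 2 single arrays (vertical axis) for each gene (horizontal axis): mock over untreated in wild type (orange squares) and IAA over untreated in wild type (blue circles), the one-copy mutant (green triangles) and the double mutant (purple diamonds), with no error bars; the dotted line marks 1.5-fold. STZ spans from 0.00 in wild type to 2.16 in the double mutant, while AT3G46600 stays between 1.13 and 1.57.

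The difference between genotypes is another contrast than the sprayed-to-untreated one that the genes were chosen by, and it was tested with limma over all probe sets, genotype and treatment being additive terms. It uses the same arrays, and earlier results of them were known when the genes were chosen, so these tests are not independent evidence. In the double mutant AT3G46600 rose by 0.61 ± 0.14 (SE) on the log2 scale against wild type, and CML41 fell by 0.77 ± 0.20 (limma, adjusted p = 0.0291 and 0.0447). AT3G46600 was higher in both matched pairs, by 0.48 untreated and 0.74 with IAA, and CML41 lower in both, at -0.83 and -0.71. That is 1 gene higher and 1 lower of 6, where 17.1% of all probe sets kept differed, 9.14% higher and 7.96% lower. The call of CML41 ended without the wild-type untreated array, the double-mutant untreated array or the double-mutant IAA array (limma, adjusted p = 0.185, 0.0985 and 0.235), and that of AT3G46600 without the wild-type untreated, wild-type IAA or double-mutant IAA array (adjusted p = 0.0672, 0.166 and 0.124). Both calls were also lost when dim probe sets were left in (limma, adjusted p = 0.311 and 0.148). That of CML41 was lost with the floor raised to the 40th percentile or after quantile normalization (limma, adjusted p = 0.0553 and 0.0516).

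The other 4 genes did not pass in the double mutant. EXO had -0.60 ± 0.19 (limma, adjusted p = 0.0681), and it was lower in both pairs, at -0.30 and -0.90. It was -0.91 without the wild-type untreated array (limma, adjusted p = 0.0193) and -0.30 without the wild-type IAA array (adjusted p = 0.475). WRKY53 had 0.39 ± 0.20, AT4G27280 0.08 ± 0.22 and STZ 0.15 ± 0.44 (limma, adjusted p = 0.22, 0.826 and 0.839). Without the double-mutant IAA array, one of those that brought WRKY53 past the filter, its value was 0.04 (limma, adjusted p = 0.894), and without the double-mutant untreated array it was 0.75 (adjusted p = 0.0445). The fitted value of STZ averages pairs that point opposite ways, with -0.93 untreated and 1.23 with IAA. For AT4G27280 the pairs were -0.19 and 0.35. On the IAA array of the double mutant WRKY53, STZ and AT3G46600 were at least 1.5-fold above wild type, 3 of 6 where 12.4% of the probe sets kept were, and CML41 and EXO as far below it, 2 of 6 where 12% were.

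In the one-copy mutant all 6 genes lay below wild type in the untreated pair and in the IAA pair, and 32.7% of the probe sets kept did so. The median fitted difference over the genes was -0.64, against 0.02 over all probe sets kept. None passed the test at 0.05, where 2.76% of all probe sets kept did, and 3 of 6 had an unadjusted p under 0.05 (limma), as did 20.4% of all probe sets kept. The nearest was AT4G27280 at -1.04 ± 0.22 (limma, adjusted p = 0.063), with -0.83 untreated and -1.25 with IAA. EXO had -0.75 ± 0.19 and CML41 -0.53 ± 0.20 (limma, adjusted p = 0.0872 and 0.208). STZ, WRKY53 and AT3G46600 had -0.75 ± 0.44, -0.46 ± 0.20 and -0.20 ± 0.14 (limma, adjusted p = 0.39, 0.264 and 0.477). AT4G27280 was -1.39 without the one-copy untreated array (limma, adjusted p = 0.0315) and -0.69 without the one-copy IAA array (adjusted p = 0.308). EXO was -1.05 without the wild-type untreated array (limma, adjusted p = 0.0325) and -0.44 without the wild-type IAA array (adjusted p = 0.389). CML41 reached -0.17 without the one-copy untreated array and STZ -0.07 without the wild-type untreated array. With each array left out in turn every one of the 6 differences stayed below 0. Leaving out the mock array or a double-mutant array did not change these differences at all. The remaining fits reuse the same wild-type and one-copy arrays, so this adds no independent evidence.

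The untreated one-copy array held the lowest of the 7 values for all 6 genes, against 7.97% of the probe sets kept. Since every gene was lowest on an untreated array by choice, that leaves 3 arrays that could hold this place. At least 1.5-fold below untreated wild type on that array were STZ at 2.04-fold, CML41 at 1.89-fold and AT4G27280 at 1.77-fold, 3 of 6 where 4.79% of the probe sets kept were. With IAA the genes as far below wild type in the one-copy mutant were AT4G27280 at 2.39-fold and EXO at 2.09-fold, 2 of 6 where 5.37% were. In the untreated double mutant STZ was 1.90-fold and CML41 1.78-fold below wild type, 2 of 6 where 7.83% were. On these single arrays STZ and CML41 thus read lower untreated in both mutants than in wild type. AT3G46600 read higher untreated in the double mutant, by 0.48 on the log2 scale. Both mutants are set against the same untreated wild-type array, so a high reading there would lower both differences together. The same untreated arrays enter the response ratios, so a low untreated value raises the ratio of that genotype.

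**Figure D4:**
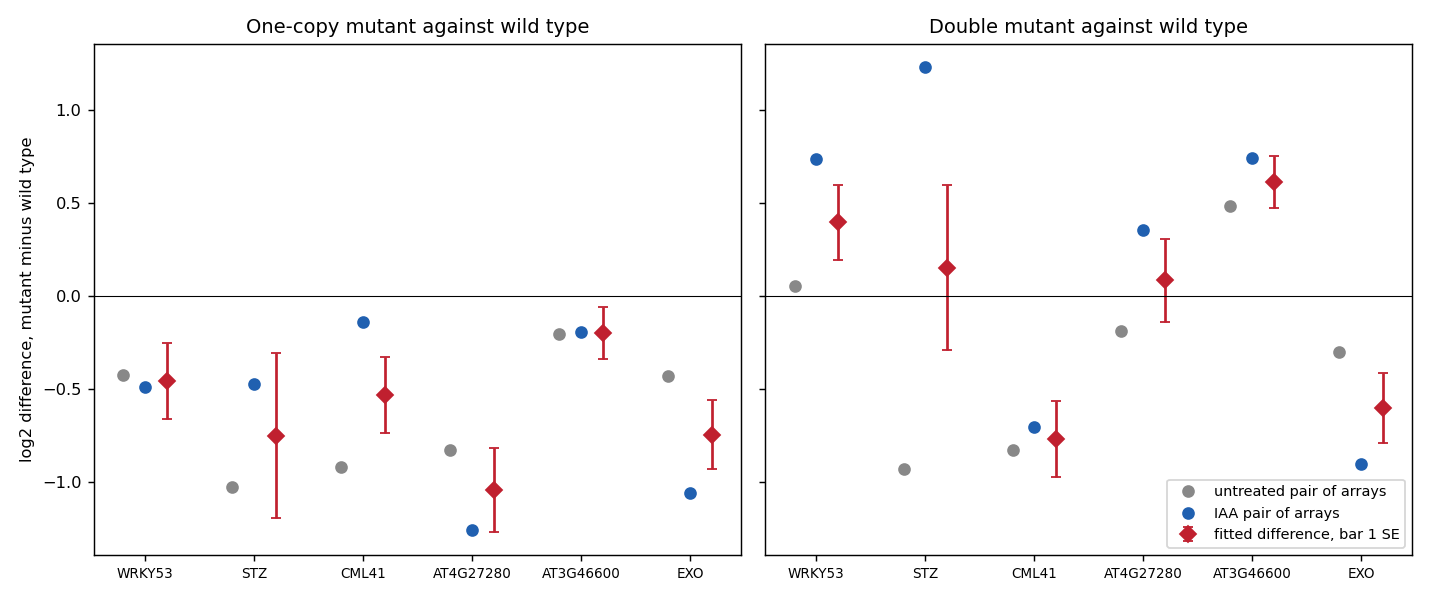
Log2 difference of each mutant minus wild type (vertical axis) for each gene (horizontal axis) in the untreated pair of arrays (grey) and the IAA pair (blue), with the fitted difference in red and its bar of 1 SE. All points of the one-copy mutant lie below 0; in the double mutant CML41 and EXO lie below 0, AT3G46600 above 0, and STZ at -0.93 and 1.23.

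Markers of other cell types moved with genotype. In the double mutant the 3 pollen genes that passed the filter were lower and the tapetum gene AMS higher past the test. Of all probe sets kept 7.96% were lower and 9.14% higher there. SWEET9, of the nectaries, was lower in both mutants. Too dim for the filter were the pollen genes ANX1 and MGH3 and the nectary gene JMT. On the untreated wild-type, one-copy and double-mutant arrays ANX1 read 124.2, 86.7 and 97.6, MGH3 144.9, 166.4 and 141.1, and JMT 177.8, 240.8 and 102.8. The 3 pollen genes that passed the filter, AT59, ANX2 and TUA1, had a summed intensity of 2592 to 3199 on the wild-type arrays, 1972 to 2071 in the one-copy mutant and 1558 to 1606 in the double mutant. The pollen gene MGH3 read 17.4 on the wild-type mock array and 55.7 on the one-copy IAA array, both below the floor. No signal on these arrays lies below 0, so a reading above 0 does not show that a pollen transcript was present. The 2 green-tissue genes, LHCB4.1 and RCA, summed to between 16925 and 21989 over the 7 arrays and did not pass in either mutant. Of all probe sets kept 17.1% passed in the double mutant and 2.76% in the one-copy mutant. The part of these cell types in the genotype differences of the 6 genes was not tested. With mock, 0 of these 3 pollen genes and 0 of the 2 green-tissue genes were 1.5-fold higher than untreated. Of all probe sets kept 6.92% were, so counts of 0 among so few genes do not set these cell types apart.

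Other genes of these pathways were few among the named probe sets. Of the calcium-sensing list, 8 of 152 entries lay on a named probe set and 4 passed the filter, of which 2 are CML41 and AT4G27280. CML30, another calmodulin-like gene, fell in the double mutant by 0.91 ± 0.16 on the log2 scale (limma, adjusted p = 0.0131). It read 244.2 untreated, 293.9 with mock and 245.3 after IAA in wild-type flowers. In the untreated one-copy and double mutants it read 122.5 and 114.7, so both were low against the same untreated wild-type array. CML42 read 335.6, 549 and 405.5 on the untreated, mock and IAA arrays of wild type, and its double-mutant difference was -0.26 ± 0.15 (limma, adjusted p = 0.259). On the log2 scale CML30 had a mock step of 0.27 and an IAA step of -0.26, and CML42 0.71 and -0.44. Both thus read lower with IAA than with mock, as STZ and WRKY53 did and unlike CML41 and AT4G27280. List entries were matched by name, so calcium-sensing genes that the gene tables give by locus code alone could be missed. These 2 genes therefore do not stand for the calcium-sensing genes as a whole.

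Of the WRKY list, 7 of 75 entries lay on a named probe set. Besides WRKY53, 2 of them passed the filter, ZAP1, which is WRKY1, and WRKY20. Their log2 ratios with mock were -0.14 and -0.05, and 0 of 2 passed in either mutant (limma, adjusted p from 0.157 to 0.884). Of all probe sets kept 17.1% passed in the double mutant and 2.76% in the one-copy mutant, so 0 of 2 does not set these genes apart. Of the GRAS list, 8 of 39 entries lay on a named probe set, and 3 genes besides AT3G46600 passed the filter. AT5G41920, also called SCL23, rose in the double mutant by 0.71 ± 0.17 (limma, adjusted p = 0.0347), as AT3G46600 did, but its mock ratio was -0.13. AT5G59450 had 0.44 with mock and 0.46 for IAA over mock, and SCL21 -0.01 and -0.20. Neither passed in the double mutant (limma, adjusted p = 0.697 and 0.127).

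Of the brassinosteroid list, 4 of 48 entries lay on a named probe set, and ARL and BIM1 passed the filter besides EXO. ARL (ARGOS-LIKE), which acts in cell expansion downstream of brassinosteroids, fell in the one-copy mutant by 0.85 ± 0.15 (limma, adjusted p = 0.0402), and had -0.55 ± 0.15 in the double mutant (adjusted p = 0.0521). In wild type it read 727.5 untreated, 814.5 with mock and 1038.1 with IAA, and it went from 356.5 to 650.9 and from 431 to 817.5 in the mutants. ARL thus lay below wild type in both mutants, as EXO did, but its mock step of 0.16 was small beside the 1.86 of EXO. BIM1, a partner of the brassinosteroid factor BES1, had -0.34 with mock and 0.30 for IAA over mock. Of the touch and wound list, 6 of 78 entries lay on a named probe set, and only WRKY53 and STZ passed the filter. For the ZAT factors it was 1 of 25 entries, STZ, and for the EXO family 1 of 8, EXO. The other entries of these lists were not found by name, so their levels were not read here.

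The patterns of the 6 genes over the 7 arrays were alike to different degrees. The highest Pearson r of the 15 pairs was 0.92, for AT4G27280 and AT3G46600, and the lowest 0.51, for STZ and CML41. CML41 was most like EXO (r = 0.85), and WRKY53 most like AT3G46600 (r = 0.89). The arrays share the split of sprayed and untreated flowers that chose the genes, so these values only describe the 7 arrays.

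The single-gene probe set most like the mean of the 6 standardised patterns was AT2G47440 (r = 0.98 over 7 arrays), among 1452 that spanned at least 1 log2 unit. In wild type it read 1589.9 untreated, 2871 with mock and 3142.1 with IAA, against 1438.9 and 2378.8 in the one-copy mutant, and 1595.9 and 3278 in the double mutant. AT3G04210, AT3G19680, AT3G25600 and AT2G46600 followed (r from 0.96 to 0.98). In all 5 the mock step in wild type, 0.50 to 1.303 on the log2 scale, was larger than the IAA step, -0.15 to 0.42. Among all probe sets kept this held for 46.9%. The 5 were ranked by likeness to the 6 genes over these same arrays, so the shared steps follow largely from the ranking.

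Single genes drew different neighbours in pattern. AT1G14480 was most like WRKY53 (r = 0.98) and had the same drop from mock to IAA, with 114.7, 281.4 and 176 in wild type. AT3G25950 was most like STZ (r = 0.94), with 236.4, 296.8 and 181 in wild type and 139.8 and 307.6 in the double mutant. AT1G10020 was most like CML41 (r = 0.93) and was also second for EXO (r = 0.98), behind AT1G22330. AT4G02200 was most like AT4G27280 (r = 0.97) and also had an IAA step (0.57) larger than its mock step (0.14), against 0.90 and 0.64 for AT4G27280. AT2G46600 was most like AT3G46600 (r = 0.98) and read 2831.7, 3990.8 and 4317.8 in wild type. These genes too were ranked by r over the same arrays, so the steps they share follow largely from the ranking.

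The genes were also set against their neighbours on the chromosome. WRKY53, AT4G27280 and EXO lie on chromosome 4, CML41 and AT3G46600 on chromosome 3 and STZ on chromosome 1. The nearest gene on each side whose probe set passed the filter, 12 in all, lay up to 13 genes away in the RefSeq order. With mock 0 of the 12 were at least 1.5-fold higher than untreated, against 6.92% of all probe sets kept. With IAA it was 0 of 12 in each genotype, against 2.88% in wild type, 3.18% in the one-copy mutant and 5.93% in the double mutant. With shares this small, 0 of 12 does not set the neighbours apart from other probe sets. The median log2 ratio of the 12 neighbours with mock was -0.19. The genes directly beside WRKY53, 3xHMG-box2 and AT4G23820, had mock ratios of -0.11 and -0.01, against 1.62 for WRKY53. The gene directly before AT4G27280, AT4G27270, had a log2 ratio of IAA over untreated of -1.02 in the double mutant, where AT4G27280 had 2.08.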

How the data were processed

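Expression was measured in 7 flower samples on single-colour arrays. The deposited intensity values are linear signals with none below 0, and MAS5 is named per the submitters' processing notes; the sources used here give neither scaling factors nor detection calls. Of the 22746 probe sets other than controls, 13513 carry 1 gene, 503 several and 8730 none listed, by the platform annotation of 2016, and 13436 of the first were renamed by gene ID through the RefSeq table of TAIR10.1. The authors' scaling was kept. Values under the 25th percentile of the whole table (64.9) were raised to it, log2 was taken, and probe sets stayed in where the highest array exceeded the 50th percentile (248.1). Genotype and treatment were additive terms over all 7 arrays in limma 3.58.1 with R 4.3.3 (lmFit, eBayes). The fit had 2 residual degrees of freedom and 4.945 from the prior. Benjamini-Hochberg adjustment covered 13021 probe sets, with a threshold of 0.05. With 1 array a group, p-values measure how well the treatments agree on a genotype difference, and 7 arrays limit the precision. The residual SD is the moderated one of each probe set. It comes from the disagreement of genotype differences between treatments and from the prior, not from repeat arrays. The fit was tested on simulated data.

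The genes and the lists were chosen with earlier results of these data known. Named are the 6 genes, list members past a genotype test or with the largest mock ratio (CML42, SCL21, AT5G59450, ZAP1, WRKY20 and BIM1 were named beside these to account for each measured member), and the probe sets with the highest Pearson r. No sequence tables were used here, so a planned search of promoters and proteins for motifs was not run. The list of petal and stamen genes had no named probe set. A synonym shared by several genes named none. Alternatives varied the floor, the filter, the scaling, the variance trend and the arrays included.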

Additional observations from a re-analysis of the deposited data

Results flagged for a closer look

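For 2 genes the difference between the double mutant and wild type had opposite signs in untreated and in IAA-sprayed flowers. STZ had a log2 difference of -0.93 in the untreated pair and 1.23 in the IAA pair. AT4G27280 had -0.19 and 0.35. Each value comes from 1 array a side, and whether the pairs differ was not tested.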

How the results depend on the processing

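The medians over the 6 genes moved by less than the residual SD under other floors and scalings, except IAA over untreated in wild type, which was 0.90 in place of 1.12 on the log2 scale with a pseudocount of 50. Of 150 ratios of single genes under these settings, 16 moved by more, among them WRKY53 in the one-copy mutant at 0.00 when the floor was raised to the 40th percentile. The double-mutant count of 2227 was 2 when dim probe sets were left in, and 621 to 2227 with each array left out. The one-copy count of 360 was 216 for the raised floor, 1 when dim probe sets were left in, 578 for a stricter filter (70th percentile), 822 for a variance trend, and 119 to 363 with each array left out. With each array left out, the double-mutant difference ranged from -0.79 to 1.09 for STZ and from -0.30 to 0.46 for AT4G27280. STZ was below 0 without the IAA array of wild type (-0.53) or of the double mutant (-0.79), and AT4G27280 without the latter. These fits have fewer samples. EXO in both mutants and AT4G27280 in the one-copy mutant passed with the stricter filter or the variance trend (limma, adjusted p from 0.0132 to 0.0494). No paired analysis was possible because the labels give no replicate numbers that groups share; the additive fit already matches genotypes by treatment. Each ratio rests on single arrays, and the lack of repeat arrays limits these values.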
